A study of Drosophila melanogaster with 19 samples.

Results

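Transcripts of 9 regulators of the amnioserosa and the dorsal ectoderm were followed across 19 arrays of Drosophila melanogaster embryos and of cells sorted from them. The genes were listed by name, with no threshold on their values but with earlier results of these data known. These are 9 of the 12679 genes on the arrays. They are pnr (pannier, FBgn0003117), ush (u-shaped, FBgn0003963), peb (pebbled or hindsight, FBgn0003053), tup (tail-up, FBgn0003896), the Dorsocross genes Doc1 (FBgn0028789), Doc2 (FBgn0035956) and Doc3 (FBgn0035954), Kr (Krüppel, FBgn0001325) and zen (zerknüllt, FBgn0004053). All 9 had a value on every array, and none was removed for a low signal.

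The amnioserosa is an extraembryonic epithelium that covers the dorsal side of the fly embryo between germ band extension and dorsal closure. Its fate is set by the highest activity of the BMP ligands Dpp and Scw, which turn on the homeobox gene zen. zen in turn is required for later amnioserosa genes, among them the zinc finger genes peb and Kr. The LIM homeobox gene tup and the T-box genes Doc1, Doc2 and Doc3 are expressed in the same tissue. The GATA factor gene pnr, and ush, which encodes a zinc finger partner of GATA factors, respond to Dpp over the broader dorsal ectoderm. peb, tup and ush are classical genes whose loss blocks germ band retraction. Most of the 9 are also known from other tissues. These are the tracheal epithelium for peb, blood cells for ush, and the heart primordium for the Dorsocross genes and tup. Kr is also known from muscles and neurons.

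The study asked what the BTB zinc finger repressor Tramtrack (ttk) regulates, by its loss and by its mis-expression. In the mutant experiment, embryos carrying ttk2D50 and btl-enh-RFPmoe were compared with embryos carrying btl-enh-RFPmoe alone. In the over-expression experiment, embryos carrying btl-GAL4, UAS-ttk and btl-enh-RFPmoe were compared with embryos carrying btl-GAL4 and btl-enh-RFPmoe. Mutant embryos of the mutant experiment were selected by a machine for lack of a GFP balancer. Every genotype therefore carried the red fluorescent reporter, which the enhancer of the FGF receptor gene btl drives in the tracheal system and the midline, and which the study also saw in other tissues, the amnioserosa among them. Whole embryos gave 2 control and 2 ttk mutant arrays, and 3 control and 3 ttk over-expression arrays. Cells sorted for red fluorescence gave 3 control and 2 ttk mutant arrays, and 2 control and 2 ttk over-expression arrays. Each whole embryo array came from a pool of embryos spanning several hours of mid to late embryogenesis, and cells from several sorting runs were pooled. RNA of embryos and of cells was extracted with different kits, so that sorting, dissociation and extraction cannot be told apart. The strain label of both over-expression control cell samples names the mutant chromosome, and these samples were grouped by their titles.

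The deposited values are log2 expression values, and all levels and differences below are on that scale. Array medians over all genes were 7.43 to 7.69 in embryos and 6.17 to 6.97 in cells of the mutant experiment, and 9.20 to 9.29 and 8.16 to 8.30 in the over-expression experiment. Differences between cells and embryos are therefore given also with each array centred on its median. ttk, the targeted gene, did not follow its labels. Its level was 11.27 and 8.83 in control embryos against 11.43 and 11.19 in embryos labelled ttk mutant, and 10.23 to 10.35 in control cells against 10.42 and 10.49 in cells labelled mutant. It was 12.38 to 12.39 in control embryos against 11.57 to 12.19 in embryos labelled over-expression, and 11.89 and 11.99 against 11.19 and 11.32 in cells. Whether ttk2D50 lowers ttk RNA, and whether the array reads the transgene, is not given in the sources used here. Hence groups are called by their labels. Of single arrays, control embryo 2 of the mutant experiment stood apart from its only replicate (r = 0.900 across genes) and was the lower of the pair for 9 of 9 members and for 44.5% of all genes. Over-expression embryo 2 correlated at 0.957 and 0.962 with the other two and was lowest in its group for 9 of 9 members and for 60.0% of all genes.

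The clearest pattern was the split of the 9 genes between sorted cells and whole embryos. In a fit over all 19 arrays with the genotype as a covariate, pnr and ush were higher in sorted cells, and Doc1, Doc2, Doc3, Kr, zen and tup were lower. pnr stood at 2.45 times its embryo level and Doc1 at 0.13 times. Of all genes, 5.4% were called higher and 65.3% lower in this fit, at a Benjamini-Hochberg adjusted p of 0.05 or below. The 6 members called lower thus make up a share close to that of all genes. On this scale 2 of 9 were called in the direction that few genes took. With every array centred on its median, 45.2% of genes were called higher and 16.3% lower. The members called were then peb, ush and pnr on the higher side and the 3 Dorsocross genes on the lower. The direction that fewer genes took was thus the lower one after centring. tup, zen and Kr had centred differences of -0.29 ± 0.19, -0.59 ± 0.41 and -0.81 ± 0.40 (SE) and no longer passed. In bulk samples fewer cells of a type and less RNA per cell cannot be told apart.

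**Figure D1:**
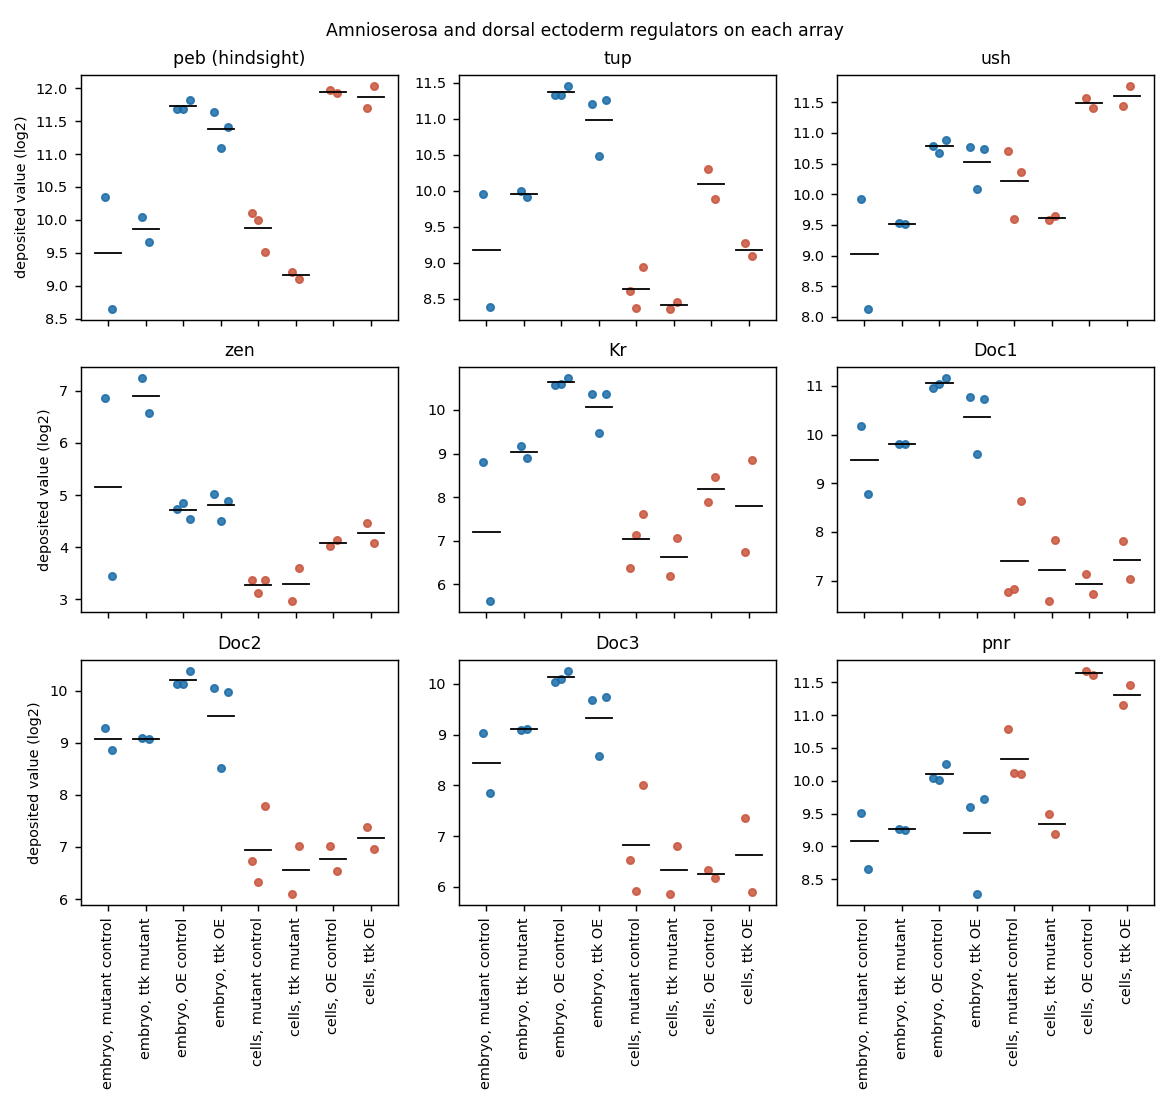
Deposited log2 value of each of the 9 genes on every array, with embryo arrays in blue, arrays of sorted cells in red and the group mean as a black line (OE, over-expression; the vertical axis differs between panels). For Doc1 and Doc2 every cell array lies below every embryo array. For Doc3 the highest cell array, at 8.01, exceeds the lowest embryo array, at 7.85. With arrays centred on their medians, which is not shown, the cell and embryo ranges of Doc1, Doc2 and Doc3 overlap.

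pnr encodes the GATA factor of the dorsal ectoderm. In whole embryos it read 9.51 and 8.66 in mutant controls, 9.27 and 9.25 in ttk mutants, 10.05, 10.01 and 10.25 in over-expression controls, and 9.60, 8.28 and 9.72 under over-expression. In sorted cells it read 10.79, 10.12 and 10.10 in mutant controls and 9.50 and 9.18 in ttk mutants. The cells of the over-expression experiment gave 11.68 and 11.61 in controls and 11.15 and 11.46 with UAS-ttk. In 3 of the 4 genotypes all cell arrays lay above all embryo arrays, while in ttk mutants the groups overlapped. The share of all genes whose cell and embryo arrays separate likewise was not counted, here or for the genes below. Relative to the array median, pnr lay between -0.98 and 2.08 in embryos and between 2.85 and 3.96 in cells, with no overlap. The fit over all genotypes gave a difference of 1.29 ± 0.25 (SE, adjusted p = 1.9e-04), larger than that of 98.1% of genes, and the centred difference was 2.28 ± 0.24.

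ush, whose protein binds the GATA factor Pannier and restrains it, followed the same direction. It read 9.93 and 8.13 in control embryos and 9.52 and 9.51 in mutant embryos of the mutant experiment, against 9.59 to 10.71 in control cells and 9.57 and 9.65 in mutant cells. In the over-expression experiment it read 10.67 to 10.89 in control embryos and 10.09 to 10.76 in over-expression embryos, against 11.57 and 11.41 in control cells and 11.44 and 11.77 in over-expression cells. Cells lay above embryos without overlap in 3 of the 4 genotypes, and in the mutant controls the groups overlapped. The difference over all genotypes was 0.80 ± 0.22 (adjusted p = 0.0041), and after centring it was 1.78 ± 0.21. Centred levels were 0.69 to 2.50 in embryos and 2.62 to 3.87 in cells, again without overlap.

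peb, a zinc finger gene needed for germ band retraction and for the integrity of the tracheal epithelium, was high in both materials. Embryos gave 10.34 and 8.65 in mutant controls, 10.05 and 9.67 in ttk mutants, 11.69, 11.69 and 11.82 in over-expression controls and 11.64, 11.10 and 11.41 under over-expression. Cells gave 10.10, 10.00 and 9.51 in mutant controls, 9.21 and 9.10 in ttk mutants, 11.97 and 11.92 in over-expression controls and 11.69 and 12.04 under over-expression. On the deposited scale the sign of the difference changed with the genotype, and the fit over all genotypes gave 0.13 ± 0.20 (adjusted p = 0.59). Relative to the array median peb lay at 1.21 to 2.91 in embryos and 2.65 to 3.81 in cells, and the centred difference was 1.11 ± 0.19 (adjusted p = 7.3e-05). The call for peb thus depended on the scaling of the arrays.

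The 3 Dorsocross genes encode T-box factors with overlapping functions that maintain the amnioserosa. They are neighbours in the genome, with 1 annotated gene between Doc3 and Doc2 and 1 between Doc2 and Doc1. Doc1 read 10.17 and 8.79 in control embryos and 9.81 and 9.80 in mutant embryos, against 6.77, 6.82 and 8.63 in control cells and 6.58 and 7.84 in mutant cells. In the over-expression experiment it read 10.96, 11.04 and 11.16 in control embryos and 10.76, 9.60 and 10.73 in over-expression embryos, against 7.14 and 6.72 in control cells and 7.82 and 7.03 in over-expression cells. All 9 cell arrays lay below all 10 embryo arrays, on a scale where 65.3% of all genes were called lower in cells. Doc2 ranged from 8.52 to 10.39 in embryos and from 6.10 to 7.78 in cells, also without overlap. Doc3 ranged from 7.85 to 10.26 in embryos and from 5.86 to 8.01 in cells, where 1 array of control cells reached into the embryo range. The differences over all genotypes were -2.95 ± 0.33 for Doc1, -2.61 ± 0.25 for Doc2 and -2.74 ± 0.34 for Doc3 (adjusted p = 7.4e-07, 1.8e-07 and 2.2e-06). Only 1.25% of genes had a difference as low as that of Doc1. The centred differences were -1.96 ± 0.32, -1.63 ± 0.25 and -1.76 ± 0.32. Relative to the array median, however, the cell and embryo ranges overlapped for all 3 genes. Doc1 lay at 0.34 to 2.74 in embryos and -1.44 to 1.77 in cells. Doc2 lay at -0.74 to 1.85 and -1.63 to 0.93, and Doc3 at -0.68 to 1.61 and -2.33 to 1.16.

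Kr, the zinc finger gap gene that is later expressed in the amnioserosa, varied widely between replicates in some groups. It read 8.81 and 5.61 in the mutant controls and 9.18 and 8.89 in mutants among embryos, against 6.37, 7.13 and 7.61 and 6.20 and 7.07 in the corresponding cells. In the over-expression experiment it read 10.58, 10.59 and 10.73 in control embryos and 10.36, 9.48 and 10.37 in over-expression embryos, against 7.90 and 8.46 in control cells and 6.74 and 8.86 in over-expression cells. Cells lay below embryos in 3 genotypes, and in the mutant controls the range of the 2 embryo arrays enclosed all 3 cell arrays. The difference over all genotypes was -1.80 ± 0.42 (adjusted p = 0.0011). tup, a LIM homeobox gene of the amnioserosa and the heart primordium, lay at 8.39 to 11.46 in embryos and 8.36 to 10.30 in cells, with a difference of -1.28 ± 0.21 (adjusted p = 3.8e-05). After centring tup differed by less than its error allowed to be called, as given above, and its position relative to the array median was 0.95 to 2.53 in embryos and 0.86 to 2.29 in cells.

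zen, the homeobox gene at the head of amnioserosa specification, is transcribed mainly in younger embryos than most of those collected. It was the dimmest member, at 2.97 to 4.47 in cells and at 4.51 to 5.01 in embryos of the over-expression experiment. Of the 3 arrays of mutant control cells, 2 gave the same value, 3.36. Embryos of the mutant experiment stood higher, at 6.86 in 1 control array and 7.24 and 6.57 in ttk mutants, whereas the other control array read 3.44. This difference between the experiments went against the array medians, which were lower in the mutant experiment. Labels and methods disagree on whether the over-expression crosses were kept at another temperature, on the amount of RNA used and on the genotype of the over-expression control. Relative to the array median, zen stood at -0.57 in the higher control array and at -0.35 and -1.12 in ttk mutants. The other control array stood at -4.00, and embryos of the over-expression experiment at -4.76 to -4.28. Experiment and genotype cannot be told apart in this difference between the experiments, and its cause was not tested. The fit over all genotypes gave -1.58 ± 0.42 for cells minus embryos (adjusted p = 0.0029). This difference was -1.87 ± 1.07 in mutant controls and -3.62 ± 0.35 in ttk mutants, but only -0.53 ± 0.23 in over-expression samples. Within the over-expression experiment the sign for zen turned from -0.63 ± 0.11 in controls to 0.42 ± 0.11 after centring.

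Within single genotypes the counts of called members are set beside the shares of all genes. In over-expression controls 3 of 9 members were called higher in cells (peb, ush and pnr, against 12.4% of genes) and 6 lower (against 66.2%). Here Doc1 differed by -4.12 ± 0.15, Doc3 by -3.87 ± 0.10 and Doc2 by -3.45 ± 0.17, and pnr by 1.54 ± 0.10. In over-expression samples 2 members were called higher (ush and pnr, against 5.26% of genes) and 4 lower (tup and the Dorsocross genes, against 33.4%). This count of 6 dropped to 2 without over-expression embryo 1, to 3 without embryo 3, to 2 without cells 1 and to 1 without cells 2, and was 7 without embryo 2, the array that stood apart. The share of all genes called in these fits was 14.8%, 17.2%, 20.2%, 17.3% and 55.9% in the same order. In ttk mutants 7 members were called lower, against 78% of genes, and none higher, against 2.83%. pnr and ush differed by 0.08 ± 0.19 and 0.09 ± 0.17 on the deposited scale in this genotype and by 1.51 ± 0.23 and 1.52 ± 0.22 after centring (adjusted p = 0.0082 and 0.0071). The count of 7 dropped to 3 without mutant embryo 1, where 51.7% of all genes were called.

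In mutant controls 0 of 9 members passed with limma, against 0.339% of genes higher and 1.68% lower. At an unadjusted p below 0.05, 2 members stood out, pnr at 1.25 ± 0.38 and Doc2 at -2.12 ± 0.50, where 29.4% of all genes did. Without control embryo 2 the count was 1, with zen at -3.58 (adjusted p = 0.011), where 16.4% of all genes passed. The 4 comparisons share no arrays. The sign of the difference for pnr, ush and the Dorsocross genes was the same in 4 of 4 on both scales. The share of all genes with the same sign in 4 of 4 is not given here. On the deposited scale the median over all genes was itself negative in each genotype. It was -0.38 in mutant controls, -1.25 in ttk mutants, -0.62 in over-expression controls and -0.56 in over-expression samples. For pnr and ush the deposited differences in ttk mutants, 0.08 ± 0.19 and 0.09 ± 0.17, were smaller than their SE.

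**Figure D2:**
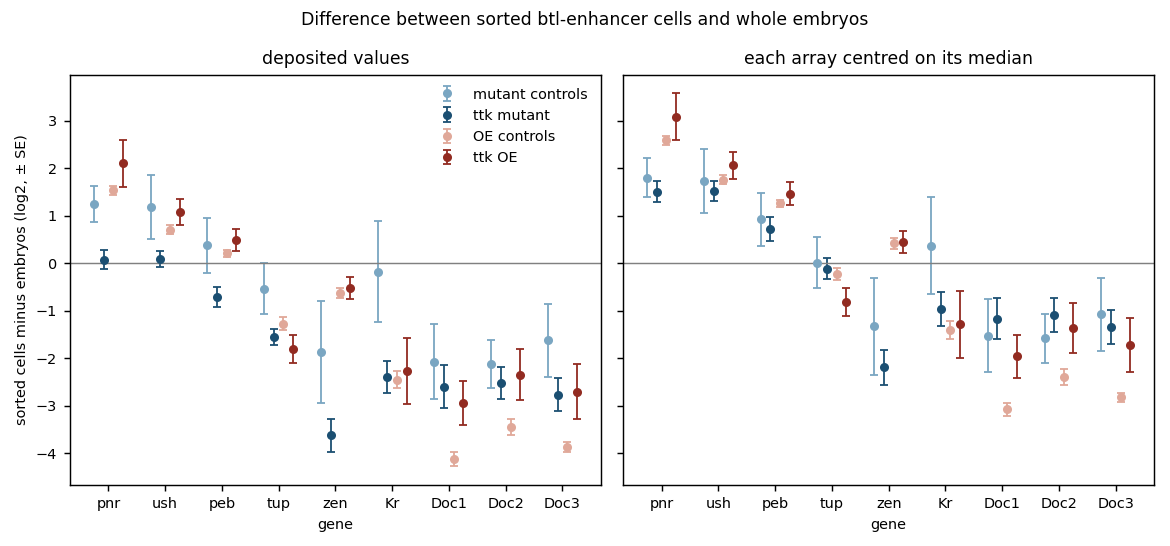
Log2 difference between sorted cells and whole embryos for each gene and genotype, with bars of 1 SE from limma, from the deposited values on the left and with each array centred on its median on the right (OE, over-expression). pnr and ush lie at or above 0 and the Dorsocross genes below 0 in both panels, while peb of the ttk mutants moves from -0.70 to 0.73 and zen of the OE controls from -0.63 to 0.42.

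A difference between 2 genes of the same array is not altered by centring that array, though quantile normalization can alter it. pnr minus Doc1 lay between -1.32 and -0.12 on the 10 embryo arrays and between 1.35 and 4.89 on the 9 cell arrays. pnr minus Doc2 lay between -0.46 and 0.23 in embryos and between 2.17 and 5.08 in cells. pnr minus Doc3 lay between -0.30 and 0.82 and between 2.09 and 5.56. For each of the 3 genes the cell and embryo arrays were apart, with the over-expression control cells at the top for Doc1 and Doc2. These pairs were set side by side after their values had been seen, and they are given without a test.

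**Figure D3:**
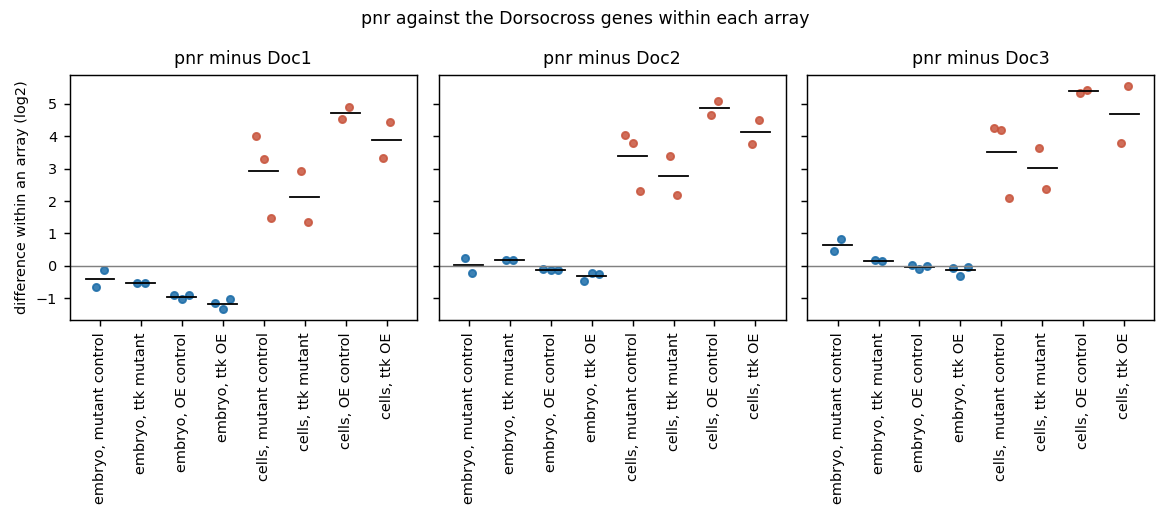
Log2 value of pnr minus that of Doc1, Doc2 or Doc3 on the same array, with embryo arrays in blue, cell arrays in red and group means as black lines (OE, over-expression). Embryo arrays stay between -1.32 and 0.82 and cell arrays between 1.35 and 5.56.

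Markers of other cell types moved along with this split. srp, the GATA factor of blood cells, which is also known from the amnioserosa, was 1.32 ± 0.29 higher in cells than in embryos (adjusted p = 7.3e-04). The mesoderm genes twi and Mef2 were 2.23 ± 0.28 and 1.44 ± 0.19 lower in cells. Of the tracheal and midline genes, btl, sim and trh were higher by 1.21 ± 0.32, 0.95 ± 0.29 and 0.73 ± 0.27, and dys differed by 0.03 ± 0.28. After centring, srp was 2.30 ± 0.26, btl 2.20 ± 0.32, sim 1.93 ± 0.28, trh 1.72 ± 0.25 and dys 1.02 ± 0.24 higher in cells, and dys then passed (adjusted p = 0.0013). The centred differences of twi and Mef2 were -1.25 ± 0.26 and -0.46 ± 0.17. Lists could be read only in part, as 3 of 6 tracheal, 1 of 2 midline, 2 of 4 mesoderm and muscle and 1 of 6 blood cell genes could be paired with FlyBase numbers, and 0 of 4 of the nervous system. The summed tracheal signal lay 1.34 to 2.62 above the array median in embryos and 2.27 to 4.77 above it in cells. The mesoderm sum lay between -0.36 and 1.92 in embryos and between -0.71 and 1.75 in cells, and srp between -0.57 and 1.56 and between 2.19 and 4.03. The lowest marker value was 3.32, for dys in mutant cells 2, at percentile 27.8 of that array. Whether the markers lay above background was not tested. The part of these cell types in the values of the 9 genes was not tested.

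Between replicate arrays of sorted cells the order of the Dorsocross genes and tup went with that of twi and against that of trh. In 4 of the 4 groups of cells, the array with the highest Doc1 was also the array with the highest twi and the lowest trh, and this held for Doc2, Doc3 and tup as well. Control cells 3 of the mutant experiment were the widest case, with Doc1 at 8.63, twi at 8.23 and trh at 8.62, against 6.77 and 6.82, 6.37 and 6.62, and 10.53 and 10.53 on the other arrays. For pnr and peb the array with the highest value had the highest twi in 1 of the 4 groups, and for ush, zen and Kr in 2. Over the 9 centred cell arrays the Dorsocross genes had r of 0.944 to 0.974 with twi and of -0.936 to -0.895 with trh. For tup the values were weaker, at 0.574 and -0.411. Over the same arrays peb went the other way, with trh (r = 0.913) and against twi (r = -0.92). Most of the groups of cells hold only 2 arrays, and the share of all genes with such an order was not counted. In over-expression control cells trh read 12.42 and 12.44, so that its order there rests on nearly equal values. Control cells 3, mutant control embryo 2 and over-expression embryo 2 were also left out together, a choice made after seeing the data. The same 8 members were then called in the fit over all genotypes.

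In whole embryos labelled ttk mutant no member was called. With limma 0 of 9 passed, as did 0% of all genes, and by the study's candidate rule (a log2 difference of at least 1 in size with p no higher than 0.05 before adjustment) 0 of 9 passed against 9.83% of genes. At an unadjusted p below 0.05 there were 0 members against 13.4% of genes. The differences ran from 0.00 ± 0.27 for Doc2 to 1.82 ± 1.19 for Kr, with zen at 1.75 ± 1.29, and their median was 0.49 against 0.19 over all genes. The 2 control arrays were far apart for Kr and zen, as given above, and the mutant arrays were close to each other. Without control embryo 1, which leaves the array that stood apart as the only control, 6 members passed, all higher in mutants, where 29.7% of all genes also passed, namely Kr at 3.42, zen at 3.46, tup, ush, Doc3 and Doc1. Without control embryo 2 none passed, and Kr differed by 0.22 and zen by 0.04.

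In sorted cells of the ttk mutant pnr was lower than in control cells, and it was the only member called. Its difference was -1.00 ± 0.28 (adjusted p = 0.045). In this comparison 47.2% of all genes were called, and the median over all genes was -0.67, so that the call of 1 in 9 lies below the share of all genes. peb followed at -0.72 ± 0.22 (adjusted p = 0.055) and ush at -0.61 ± 0.37. After centring, pnr differed by -0.31 ± 0.30 (adjusted p = 0.61) and no member passed. The call for pnr was also lost on leaving out any 1 of the 5 arrays, where its difference stayed between -0.77 and -1.15 and its adjusted p between 0.060 and 0.22. Of the other members, peb at -0.90 passed without control cells 3 and ush at -0.93 without control cells 2, where 22.6% and 46.9% of all genes passed. By the candidate rule 0 of 9 members passed against 22.4% of genes. srp, the marker of blood cells, differed by -1.17 ± 0.20 in the same comparison (adjusted p = 0.017) and by -0.48 ± 0.25 after centring (adjusted p = 0.34). Of the other 6 markers none passed, with btl at 0.17 ± 0.58 and the others between -0.70 ± 0.73 for twi and -1.42 ± 0.47 for dys.

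In whole embryos labelled ttk over-expression 8 of the 9 genes had lower means than in controls, but none passed with limma. The median difference over all genes was -0.067, and the share of all genes with a lower mean is not given here. The share of all genes called was 0.347%, and by the candidate rule it was 3.12%, with 0 of 9 members. At an unadjusted p below 0.05 there were 0 members against 17.4% of genes. In 7 members every over-expression array lay below every control array, where 23.6% of all genes did so. The differences were -0.90 ± 0.40 for pnr, -0.80 ± 0.33 for Doc3, -0.70 ± 0.43 for Doc2, -0.69 ± 0.33 for Doc1, -0.56 ± 0.26 for Kr, -0.39 ± 0.22 for tup and -0.35 ± 0.15 for peb. The adjusted p values of the members ran from 0.29 to 0.74. pnr and Doc3 ranked among the lowest 1.36% and 1.93% of all differences. Over-expression embryo 2 was the lowest array of its group for 9 of 9 members and for 60.0% of all genes, with pnr at 8.28 and Doc3 at 8.58. Without that array the differences shrank to -0.44 for pnr and -0.42 for Doc3, and these 2 members then passed (adjusted p = 0.049 and 0.043), as did 10.5% of all genes. Of the markers, btl, sim, twi and srp differed by -0.95 ± 0.46, -1.01 ± 0.34, -0.64 ± 0.31 and -0.62 ± 0.21 in the same embryos. Mef2, trh and dys differed by -0.40 ± 0.15, -0.30 ± 0.16 and 0.47 ± 0.36, and none of the 7 markers passed.

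In sorted cells labelled ttk over-expression 0 of 9 members and 0% of all genes passed with limma. The candidate rule also gave 0 of 9, against 2.53% of genes. At an unadjusted p below 0.05 there was 1 member, tup, against 11.7% of genes. tup read 9.27 and 9.09 in over-expression cells against 10.30 and 9.89 in control cells. Its difference of -0.91 ± 0.20 (adjusted p = 0.30) was lower than that of all but 1.54% of genes. pnr differed by -0.34 ± 0.16. The Dorsocross genes had positive differences of 0.37 to 0.50, and Kr spanned 6.74 to 8.86 over 2 over-expression arrays.

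**Figure D4:**
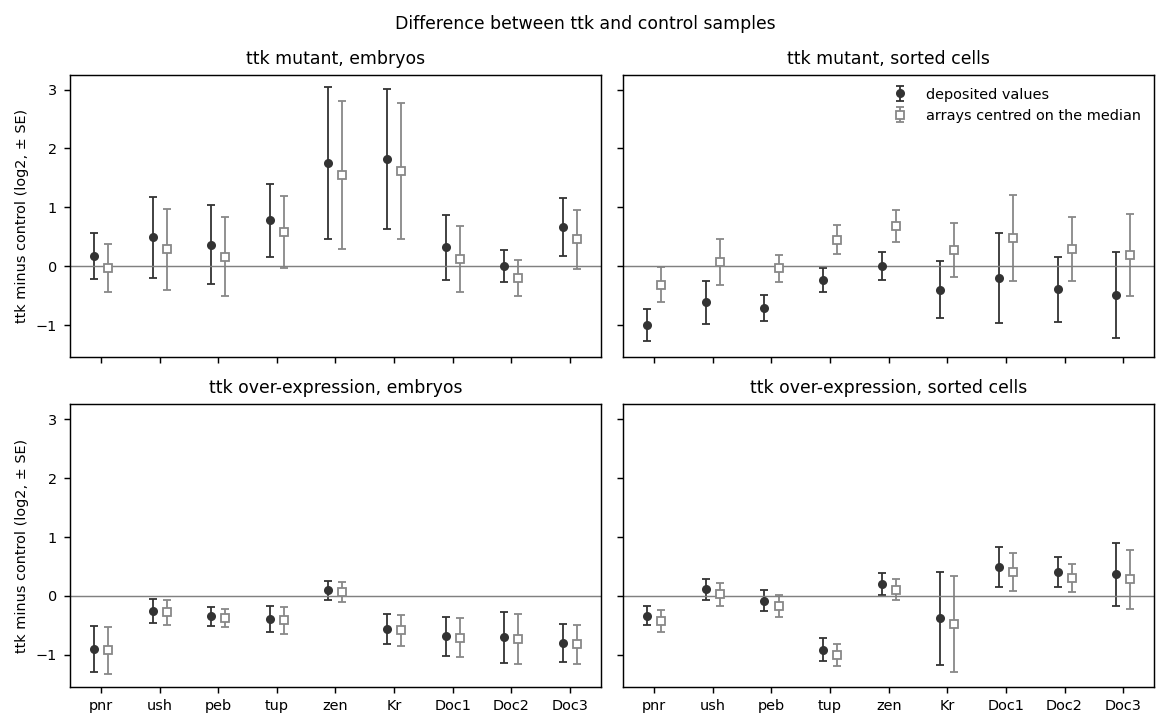
Log2 difference between arrays labelled ttk mutant or ttk over-expression and their controls for each gene, with bars of 1 SE from limma, from deposited values (filled circles) and with each array centred on its median (open squares). pnr in ttk mutant cells, at -1.00, is the only deposited difference that passed an adjusted p of 0.05, and Kr and zen in mutant embryos carry the widest bars.

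The change of the ttk effect between cells and embryos was tested as an interaction. In the mutant experiment it was negative for 9 of 9 members, from -0.40 ± 0.68 for Doc2 to -2.22 ± 1.30 for Kr, where the median over all genes was -0.87. None passed with limma, against 15.4% of genes, and at an unadjusted p below 0.05 there was 1 member, pnr at -1.17 ± 0.48, against 40.4% of genes. Without control embryo 1 the interaction passed for 6 members, all negative, and for 37.8% of all genes. In the over-expression experiment 8 of 9 interactions were positive, led by Doc1 at 1.18 ± 0.53, Doc3 at 1.17 ± 0.65 and Doc2 at 1.10 ± 0.61. Of these none passed, against 0.071% of genes, and 0 members had an unadjusted p below 0.05 against 10.2% of genes. A difference between the effect of ttk in cells and in embryos was therefore not shown for any of the 9 genes.

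Among all genes on the arrays, those most alike in pattern could be named only for the Dorsocross genes. Over the 19 median-centred arrays the gene nearest to Doc1 was Doc3 (r = 0.983) and the next was Doc2 (r = 0.971), and Doc1 was nearest to both Doc2 and Doc3. The arrays fall into groups, and these correlations, given as a description, include the distance between cells and embryos. Doc1 minus Doc2 lay between -0.08 and 1.09 on the embryo arrays and between 0.03 and 0.84 on the cell arrays, and Doc1 minus Doc3 between 0.69 and 1.13 and between 0.24 and 1.13. The nearest genes of the other members (r = 0.900 to 0.982) carry FlyBase numbers that no annotation held here names. Of the remaining dorsal patterning, amnioserosa and dorsal closure genes, 0 of 13, 0 of 4 and 0 of 9 had a FlyBase number in the gene table held, and they are not reported here.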

How the data were processed

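RNA of whole embryos and of sorted cells was hybridised by the authors to 1-colour Affymetrix Drosophila Genome 2.0 arrays. The deposited values are log2 expression values, 1 per gene and array, summarised with an ENSEMBL based chip definition, and the submitters' processing notes name RMA without a version. The log2 unit was read from the range of the values. No measure of signal over background was used, and 2 or 3 arrays per group limit the precision. The methods describe the replicates as biological, while the labels do not say how they differ.

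The 12679 genes were fitted with limma 3.58.1 in R 4.3.3, and 182 control features were left out. Each comparison used the arrays of its 2 groups, the fit over all genotypes used 19 arrays, and the interaction used the 4 groups of an experiment. Tests were two-sided, with Benjamini-Hochberg adjustment over all genes. The pipeline was tested on simulated data with 200 changed genes. All 9 members are named, beside ttk, the marker genes that could be paired and the 2 genes nearest to each member. Members and lists were chosen with earlier results of these data known. Alternatives were median centring, quantile normalization, leaving out genes below the 25th percentile, the 4 groups in one fit, the replicate number as a block and leaving out each array. No gene sequence table was used here, so no sequence is printed.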

Additional observations from a re-analysis of the deposited data

How the results depend on the processing

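With each array centred on its median, 0 members were called in ttk mutant cells (1 with deposited values) and 4 in ttk mutant cells minus embryos (7 with deposited values). Quantile normalization gave 0 and 3. tup, zen and Kr, lower in cells over all genotypes, lost their calls after centring. Centring turned the sign of Doc2 (-0.20) and pnr (-0.026) in mutant embryos and of tup (0.45), ush (0.069), Kr (0.28), Doc1 (0.48), Doc2 (0.29) and Doc3 (0.19) in mutant cells. It turned tup (0.016) and Kr (0.37) in mutant control cells minus embryos, peb (0.73) in ttk mutant cells minus embryos, and zen in over-expression controls (0.42) and over-expression samples (0.46). Quantile normalization turned Doc1 (-0.0039), Doc2 (-0.28) and pnr (-0.13) in mutant embryos and peb (0.024), tup (0.50), ush (0.11), Kr (0.29), Doc1 (0.52), Doc2 (0.32) and Doc3 (0.24) in mutant cells. It also turned Kr (0.39) in mutant control cells minus embryos and peb (0.71) in ttk mutant cells minus embryos. The interaction of the mutant experiment turned for Doc1 (0.36) and Doc2 (0.48) on centring, and for tup (0.028), Doc1 (0.51) and Doc2 (0.61) on quantile normalization. Of the sign changes named so far, peb in ttk mutants and zen in over-expression controls had passed the test with deposited values.

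Whether the numbers of replicates pair the arrays could not be decided. Same-numbered over-expression and control embryos correlated at -0.32, 0.35 and 0.41 in their deviations from group means. Over the other comparisons the values ran from -0.40 (over-expression cells and embryos) to 0.46 (mutant and control embryos). With 2 or 3 arrays per group the deviations within a group depend on each other. With the replicate number as a block, 0 members were called in ttk mutant cells and 0 in over-expression cells minus embryos (6 without it), and Doc1 (0.41), Doc2 (0.022) and Doc3 (0.11) turned in mutant cells. The block called 7 genes in over-expression embryos (44 without it) and 0 in ttk mutant cells (5984 without it). In ttk mutant cells minus embryos the crossed pairing, added after seeing the data, called 7 members. The 4 groups in one fit gave 0 members in ttk mutant cells and 2 in mutant control cells minus embryos. Genes called in ttk mutant cells numbered 691 after centring, 792 after quantile normalization and 3519 with 4 groups in one fit, and in ttk mutant cells minus embryos 3929 and 3391 after the same scalings (10246 with deposited values). Without the 3 arrays that stood apart, peb over all genotypes was -0.077.

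Leaving out 1 array at a time gave 0 to 6 members in mutant embryos, 0 to 1 in mutant cells, 0 to 2 in over-expression embryos, 0 to 1 in mutant control cells minus embryos, 3 to 6 in ttk mutant cells minus embryos, 1 to 7 in over-expression cells minus embryos and 0 to 6 in the interaction of the mutant experiment. Ranges that crossed 0 in mutant embryos were -0.48 to 1.21 for peb, -0.0047 to 1.57 for tup, -0.41 to 1.38 for ush, -0.37 to 1.02 for Doc1, -0.20 to 0.21 for Doc2 and -0.25 to 0.60 for pnr. In mutant cells they were -0.32 to 0.32 for zen, -0.84 to 0.037 for Kr, -0.83 to 0.43 for Doc1, -0.85 to 0.060 for Doc2 and -0.96 to 0.11 for Doc3. Under over-expression they were -0.012 to 0.24 for zen in embryos, and -0.25 to 0.093 for peb, -0.051 to 0.28 for ush, -1.44 to 0.68 for Kr and -0.36 to 1.10 for Doc3 in cells. In cells minus embryos they were -0.47 to 1.22 for peb, -1.32 to 0.25 for tup and -1.77 to 1.42 for Kr in mutant controls, -0.077 to 0.23 for pnr in ttk mutants and -0.052 to 0.25 for peb over all genotypes. For the interactions they were -1.22 to 0.17 for Doc1 and -0.85 to 0.055 for Doc2 in the mutant experiment, and -0.091 to 0.30 for zen and -0.88 to 1.24 for Kr in the over-expression experiment. The cause of these changes was not tested. The filter on dim genes changed no call of a member that it kept, in 74 values. The 8 calls over all genotypes were kept in each fit with 1 array left out. The 2 or 3 arrays per group and an unknown distance to background limit all of these values, those of zen first.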
